A study of Homo sapiens with 6 samples.

Results

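The proteasome genes were taken as every listed gene whose symbol is PSMA, PSMB, PSMC, PSMD, PSME, PSMF or PSMG followed by digits, 1 PSMB gene apart. This gave 45 of the 16116 genes in the deposited gene table: 16 of the core (PSMA and PSMB), 20 of the cap (PSMC and PSMD) and 9 regulators (PSME, PSMF and PSMG). They were compared between 3 wild-type (WT) and 3 knockout (KO) libraries of HK-2, an immortalised human kidney proximal tubule line, by bulk RNA-seq. The series title and the genotype label of every KO sample give FAM134B, the ER-phagy receptor now called RETREG1, as the deficient gene, while the design text names TAX1BP1, an autophagy cargo receptor. The labels do not say whether the KO cells were 1 clone or several, so p-values cover only the variation among these libraries, which may be technical.

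The proteasome is the barrel-shaped protease that degrades proteins tagged with ubiquitin. Its core stacks rings of alpha subunits, which gate the channel, around rings of beta subunits, some of which carry the proteolytic sites. The cap recognises ubiquitin chains, removes them and unfolds the substrate with a ring of ATPases. Interferon-induced beta subunits can replace the constitutive catalytic ones to form the immunoproteasome, which shapes the peptides loaded on HLA class I. Transcription factor NFE2L1 raises many subunit genes together when proteasome activity is short.

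RETREG1 reads numbered 72, 80 and 73 in WT and 33, 27 and 28 in KO. It was lower in all 3 KO libraries (log2 fold change -1.33, SE 0.18), and edgeR's quasi-likelihood test gave an adjusted p of 5.31e-07. TAX1BP1 was at 156 ± 6.30 and 151 ± 9.46 CPM (counts scaled to library size; SD, n = 3 each), a difference of -0.05 on the log2 scale (adjusted p = 0.533, edgeR). Libraries held 16796964 to 17127468 estimated reads. Of 15 proximal tubule markers, 5 reached 1 CPM in 3 libraries, among them GGT1, DPP4, MME and PAX8, and SLC22A6, SLC22A8 and HNF4A were not listed. The summed level of the 15 was 1305 to 1374 CPM in WT and 1381 to 1473 CPM in KO. Of 6 epithelial markers, 5 reached 1 CPM, and their sum was 1091 to 1158 CPM in WT and 785 to 847 CPM in KO. Of these 5, 4 fell, down to a log2 fold change of -6.06 for KRT19, and EPCAM rose (0.29). The endothelial markers summed to at most 0.713 CPM, with CDH5, VWF and KDR not listed. The leukocyte markers summed to 20.9 to 25.4 CPM in WT and 23.5 to 24.7 CPM in KO, with 1 of 6 at 1 CPM, CD68. The fibroblast markers summed to 20.7 to 27.1 CPM in WT and 16.7 to 19.2 CPM in KO, with 1 of 6 at 1 CPM, COL1A1. The part of the epithelial difference in the results below was not tested, and in bulk RNA fewer cells of a type and less RNA per cell cannot be told apart.

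All 45 proteasome genes passed the filter on low counts, the lowest with 225 reads in a library. At an adjusted p under 0.05 in edgeR over all tested genes, 6 proteasome genes rose in KO (PSMB2, PSMB4, PSMB8, PSMD4, PSME4 and PSMG4). As many fell (PSMA2, PSMA4, PSMB10, PSMD8, PSMD12 and PSME3), and 33 were not called. The called share was 26.7%, against 36.8% of all 12702 tested genes (18.7% higher, 18.1% lower). The CPM values of WT and KO did not overlap for 16 proteasome genes (35.6%), against 46.3% of all tested genes. No proteasome gene reached a 2-fold change, which 4.76% of tested genes did. The log2 fold changes ran from -0.38 for PSMB10 to 0.38 for PSMG4, with a median of -0.01. Their median absolute size was 0.06, against 0.15 for all tested genes. The called genes were thus split between both directions, and their changes were small.

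The count of genes that fell depended on single libraries. It was 2 without WT replicate 1, 3 without KO replicate 2 and 3 without KO replicate 3. Scaling to library totals gave 5 higher and 8 lower. Of the 12 called genes, 6 kept their call in all 18 alternatives (PSMB4, PSMB8, PSMB10, PSMD4, PSMD8 and PSMG4), and none of the 12 changed sign in any of them. PSMA4 lost its call without WT replicate 1, WT replicate 3 or KO replicate 2, and PSME3 without WT replicate 1 or KO replicate 3. PSME4 lost its call without WT replicate 2 or KO replicate 2, and PSMA2 without any library other than KO replicate 1. Both PSMB2 and PSMD12 lost theirs when either of WT replicates 1 and 2, or either of KO replicates 2 and 3, was left out.

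**Figure D1:**
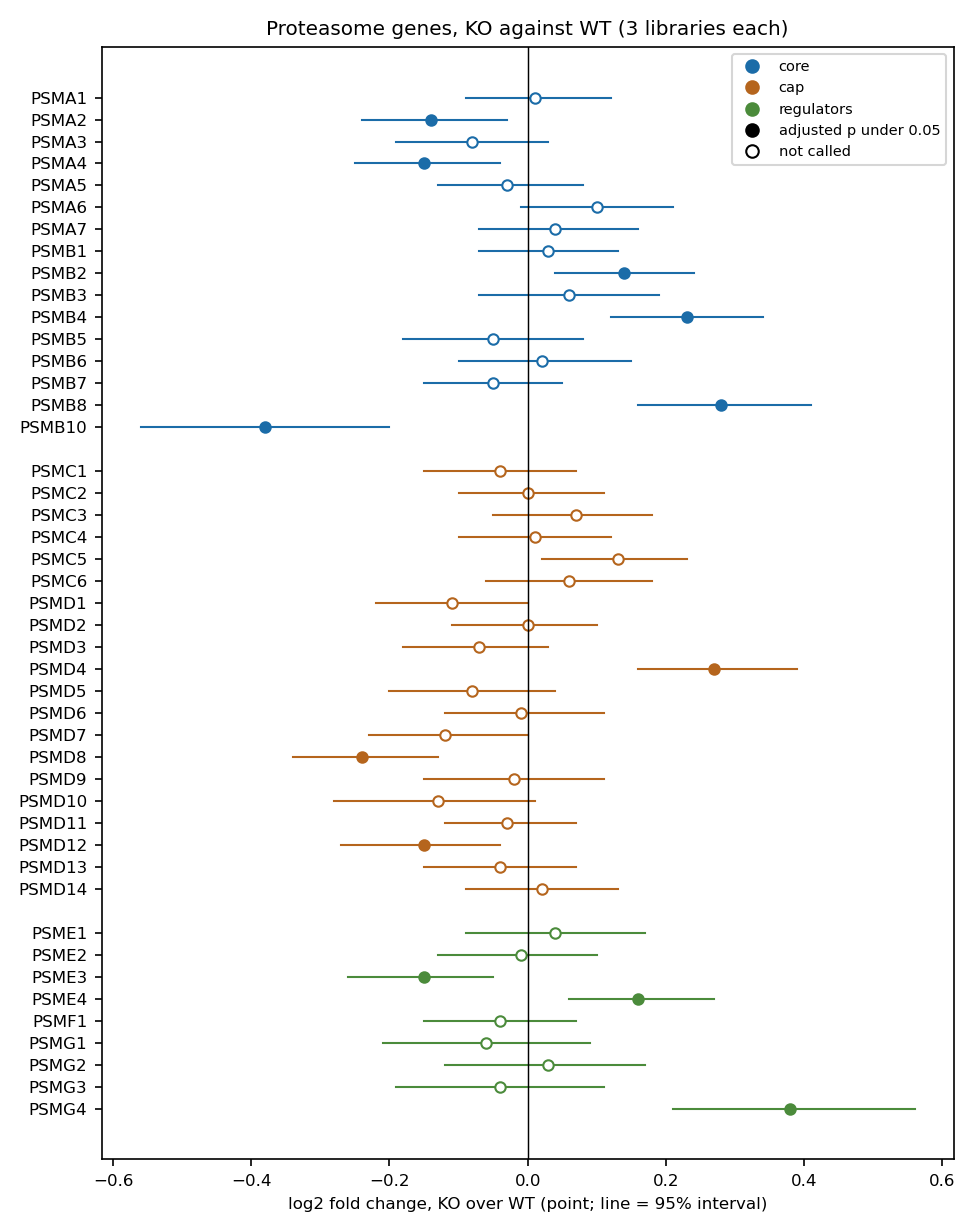
Log2 fold change, KO over WT (x axis), of each of the 45 proteasome genes (y axis) with its 95% interval. Filled points passed an adjusted p of 0.05 in edgeR; the points lie between -0.38 for PSMB10 and 0.38 for PSMG4, with called genes on both sides of 0.

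The summed level of the 45 genes overlapped between the groups. It was 6029, 5815 and 6142 CPM in WT and 5916, 6074 and 6102 CPM in KO. The core had 3 genes higher and 3 lower of 16, with a median log2 fold change of 0.02. The cap had 1 higher and 2 lower of 20 (median -0.02), and the regulators 2 higher and 1 lower of 9 (median -0.01). Over all tested genes, 18.7% were higher and 18.1% lower, 36.8% in all. The called share was near that 36.8% in the core and the regulators and below it in the cap. The median log2 ratio of core genes to their WT mean was -0.064, 0.020 and 0.064 in the 3 KO libraries, which lay on both sides of 0. The same median was -0.048, -0.013 and -0.020 for the cap and -0.035, 0.029 and 0.019 for the regulators. The cap median was thus below 0 in all 3 KO libraries, but the WT libraries, at 0.028, -0.054 and 0.013, spanned that range. These class counts were small: leaving out 1 library gave 1 to 3 lower core genes (1 without WT replicate 1, WT replicate 3 or KO replicate 2). It gave 1 or 2 higher cap genes (2 without WT replicate 3 or KO replicate 1) and 1 or 2 lower ones (1 when either of WT replicates 1 and 2, or either of KO replicates 2 and 3, was left out). For the regulators it gave 1 or 2 higher (1 without WT replicate 2 or KO replicate 2) and 0 or 1 lower (0 without WT replicate 1 or KO replicate 3).

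Levels per transcript length, in the authors' TPM, differed far more between proteasome genes than between the groups. In WT they ran from 26.3 TPM for PSMF1, which encodes an inhibitor of the core, to 719 TPM for PSMB1, a non-catalytic beta subunit. That is a 27.3-fold range with a median of 135 TPM. In KO the range was 25.1 TPM (PSMF1) to 793 TPM (PSMB4), with a median of 126 TPM. The order of the 45 levels was nearly the same in both groups (rank correlation of group means 0.993, a description over genes of the same libraries). The 14 constitutive core genes had a median of 319 TPM in WT and 314 TPM in KO, and the 17 structural cap genes 129 and 123 TPM. Core over cap, as a ratio of summed TPM, was 1.69, 1.74 and 1.73 in WT and 1.70, 1.73 and 1.79 in KO (means 1.72 ± 0.0240 and 1.74 ± 0.0434, SD, n = 3). The ratios overlapped, with p = 0.50 in a two-sided exact permutation test.

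**Figure D2:**
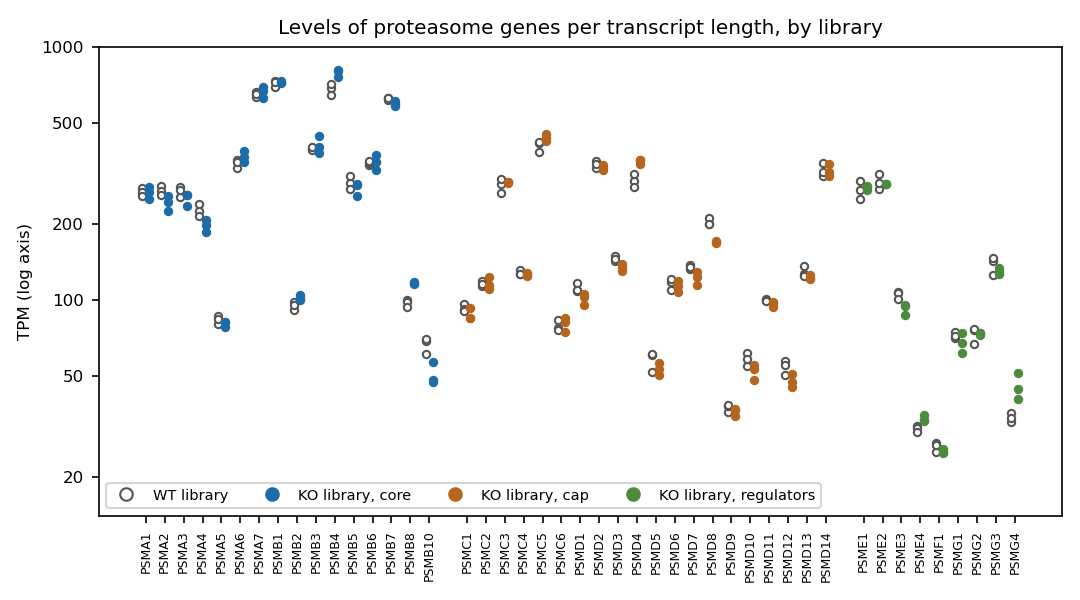
TPM (log axis) of the 45 proteasome genes, 1 point per library, with open circles for WT and filled circles for KO. Genes span 26.3 to 719 TPM in WT, and the WT and KO points of most genes lie side by side.

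Among the 7 alpha subunits of the core, 2 fell (28.6%, against 18.1% of all tested genes) and none rose. The share called in either direction, 28.6%, was below the 36.8% of all tested genes. PSMA4 (NCBI gene 5685) was at 148, 144 and 149 CPM in WT and 135, 128 and 136 CPM in KO. All KO values lay below all WT values (log2 fold change -0.15, SE 0.051, adjusted p = 0.0253, edgeR). PSMA2, the other, was at 171, 162 and 163 CPM in WT and at 156, 152 and 143 CPM in KO. Its groups did not overlap either, and the log2 fold change was -0.14 (SE 0.052, adjusted p = 0.0406, edgeR), a call lost in 5 limma settings. RefSeq names 3 pseudogenes of PSMA2, whose reads the authors' counting could split. In all, 4 called genes have a named pseudogene: PSMA2, and with 1 each PSMD4, PSMD8 and PSMD12. The 5 other alpha genes lay between -0.08 (PSMA3) and 0.10 (PSMA6), the latter with an adjusted p of 0.133 in edgeR.

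Of the 7 constitutive beta genes, 2 rose (28.6%, against 18.7% of all tested genes) and none fell. The share called in either direction, 28.6%, was below the 36.8% of all tested genes. Both genes that rose, PSMB2 and PSMB4, lie on chromosome 1, where 35.7% of tested genes were higher. PSMB4, which encodes a non-catalytic subunit, was at 221, 213 and 242 CPM in WT and 247, 271 and 275 CPM in KO. Its lowest KO value was above its highest WT value, and the KO mean was 117% of WT (log2 fold change 0.23, SE 0.055, adjusted p = 0.00135, edgeR). PSMB2, also without a catalytic site, was at 205, 214 and 219 CPM in WT and 233, 233 and 235 CPM in KO. The increase was smaller (log2 fold change 0.14, SE 0.049, adjusted p = 0.0293, edgeR), and it lost its call with library totals and in 5 limma settings.

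The genes of the constitutive catalytic subunits were not called. PSMB5, the chymotrypsin-like subunit, was at 114, 109 and 126 CPM in WT and 101, 116 and 120 CPM in KO. These values overlapped, and the log2 fold change of -0.05 had a 95% interval of -0.18 to 0.08 (adjusted p = 0.580, edgeR). PSMB6, the caspase-like subunit, was at 92.3, 97.7 and 101 CPM in WT and 89.0, 98.6 and 108 CPM in KO, also overlapping (0.02, interval -0.10 to 0.15, adjusted p = 0.798, edgeR). PSMB7, the trypsin-like subunit, was at 225, 226 and 235 CPM in WT and 220, 220 and 222 CPM in KO. Its KO values lay just under its WT values, but the difference did not pass (-0.05, interval -0.15 to 0.05, adjusted p = 0.464, edgeR).

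The immunoproteasome genes moved in opposite directions. PSMB8 (NCBI gene 5696), the inducible counterpart of PSMB5, was at 45.1, 45.0 and 44.1 CPM in WT and 52.4, 54.5 and 56.4 CPM in KO. It rose to 122% of WT without overlap (log2 fold change 0.28, SE 0.061, adjusted p = 0.000479, edgeR). PSMB10 (NCBI gene 5699), the inducible counterpart of PSMB7, was at 21.7, 24.7 and 26.0 CPM in WT and 16.8, 20.8 and 18.1 CPM in KO. It fell to 76.9% of WT without overlap (log2 fold change -0.38, SE 0.088, adjusted p = 0.00108, edgeR), the lowest fold change of the 45 genes. PSME1 and PSME2, subunits of the interferon-induced activator PA28, were not called. PSME1 was at 87.7, 96.3 and 108 CPM in WT and 95.2, 102 and 104 CPM in KO (0.04, interval -0.09 to 0.17, adjusted p = 0.651, edgeR). PSME2 was at 81.1, 73.3 and 78.7 CPM in WT and 74.9, 77.4 and 78.6 CPM in KO (-0.01, interval -0.13 to 0.10, adjusted p = 0.884, edgeR). Both overlapped between the groups, and RefSeq names 6 pseudogenes of PSME2.

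Per transcript length, PSMB8 stood at 34.5%, 35.8% and 30.3% of PSMB5 in WT and 45.0%, 40.9% and 41.2% in KO. PSMB10 stood at 9.77%, 11.1% and 11.2% of PSMB7 in WT and 7.72%, 9.54% and 8.21% in KO. Neither ratio overlapped between the groups. Both gave p = 0.10 in a two-sided exact permutation test, the smallest that 3 libraries against 3 allow. The inducible transcript was thus the minor form of each pair in all 6 libraries.

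**Figure D3:**
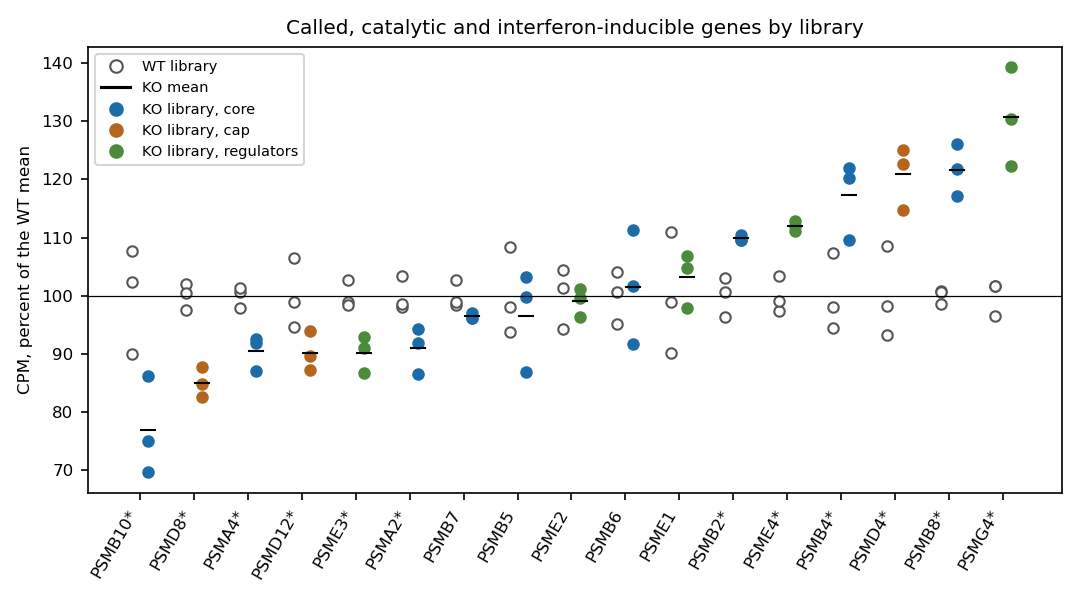
CPM as a percentage of the WT mean (y axis) for 17 called, catalytic or interferon-induced genes (x axis), with open circles for WT libraries, filled circles for KO libraries and bars for KO means; asterisks mark called genes. The KO means run from 76.9% for PSMB10 to 131% for PSMG4, with PSMB8 at 122%.

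The promoter sequences of these 4 genes are shown because they share a short motif, while PSMB8 rose, PSMB10 fell and PSME1 and PSME2 were not called. The sequences are RefSeq windows on build GRCh38.p14, each written 5′ to 3′ on the gene's strand, with 60 bases before a listed start and 20 from it on. Capitals mark the core letters of the interferon-stimulated response element, GAAA, any 2 bases and GAAA again, or their reverse complement.
PSMB8 (chr6:32844028-32844107, minus strand): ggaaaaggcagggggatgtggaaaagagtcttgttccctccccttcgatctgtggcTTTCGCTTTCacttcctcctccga
PSMB10 (chr16:67936831-67936910, minus strand): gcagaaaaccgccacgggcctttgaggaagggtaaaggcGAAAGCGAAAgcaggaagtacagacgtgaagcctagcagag
PSME1 (chr14:24136134-24136213, plus strand): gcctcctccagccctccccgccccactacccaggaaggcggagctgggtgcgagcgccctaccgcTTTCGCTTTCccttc
PSME2 (chr14:24146591-24146670, minus strand): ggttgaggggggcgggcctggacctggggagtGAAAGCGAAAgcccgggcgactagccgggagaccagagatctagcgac

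RefSeq windows of 300 bases, 250 before each listed start and 50 from it on, were matched to 39 of the 45 genes. On either strand, these letters were in a window of 7 of them (17.9%), against 4.38% of all 27305 genes with a window and 3.81% of the 10438 tested ones. Of the 7 genes, PSMB4, PSMB8 and PSMG4 rose, PSMA4 and PSMB10 fell, and PSME1 and PSME2 were not called. Over all tested genes 36.8% were called. PSMB4 lies on chromosome 1 and PSMB8 and PSMG4 on chromosome 6, where 35.7% and 53.5% of tested genes were higher. The part of the motif in these differences was not tested. A match describes the letters only.

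The 8 listed genes of interferon signalling and antigen presentation were set beside them. All 8 had a log2 fold change below 0, and 5 fell (62.5%, against 18.1% of all tested genes), none rose, with a median of -0.33. NLRC5, a transactivator of HLA class I and immunoproteasome genes, was at 6.28, 6.76 and 7.84 CPM in WT and 1.31, 1.78 and 2.55 CPM in KO. It fell without overlap (log2 fold change -1.88, SE 0.18, adjusted p = 1.33e-09, edgeR). B2M, the light chain of HLA class I, fell from 386 ± 11.6 to 277 ± 6.04 CPM (-0.48), and ERAP2, a peptide-trimming enzyme of the ER, from 174 ± 4.11 to 131 ± 4.56 CPM (-0.41). IRF1, a transcription factor of the interferon response, also fell (-0.54). PSMB10 fell with these genes, and PSMB8 rose.

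Among the cap genes, none of the 6 ATPases was called. Of these PSMC subunits, which form the unfolding ring, 5 had a log2 fold change above 0, with a median of 0.03. When scaled to library totals, 3 of 6 were above 0. Of all 12702 tested genes, 6341 were above 0 in the main test. PSMC5 was the nearest to a call (229 ± 14.5 to 249 ± 7.95 CPM, log2 fold change 0.13, adjusted p = 0.0621, edgeR). RefSeq names 13 pseudogenes of PSMC1, so its level is uncertain.

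PSMD4, a ubiquitin receptor of the cap, was the only called gene of the 3 other base subunits. It was at 160, 152 and 177 CPM in WT and 187, 200 and 204 CPM in KO. The groups did not overlap, and it rose to 121% of WT (log2 fold change 0.27, SE 0.056, adjusted p = 0.000301, edgeR). PSMD2, the most abundant member in CPM, was at 487 ± 23.7 and 486 ± 21.1 CPM, and PSMD1 at -0.11 (adjusted p = 0.0998, edgeR).

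Of the 8 lid subunits, which hold the deubiquitinating part of the cap, 2 fell and 7 had a log2 fold change below 0 (median -0.06). The share that fell was above the 18.1% of all tested genes. The share called in either direction was below their 36.8%. Of all 12702 tested genes, 6361 were below 0. PSMD8 was at 130, 136 and 134 CPM in WT and 110, 113 and 117 CPM in KO. Every KO value was below every WT value, at 85.0% of the WT mean (log2 fold change -0.24, SE 0.052, adjusted p = 0.000600, edgeR). PSMD12 was at 127, 118 and 113 CPM in WT and 112, 107 and 104 CPM in KO, so its groups nearly touched (-0.15, SE 0.055, adjusted p = 0.0322, edgeR), and it was not called in 5 limma settings. PSMD14, the lid's deubiquitinase, was the 1 lid gene above 0, at 0.02, and with library totals all 8 were below 0. The genes of the cap's assembly chaperones PSMD5, PSMD9 and PSMD10 lay between -0.13 and -0.02, and none was called.

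Among the regulators, the activator genes moved in both directions. PSME4, which encodes the nuclear activator PA200, was at 121, 114 and 116 CPM in WT and 132, 130 and 131 CPM in KO. It rose to 112% of WT without overlap (log2 fold change 0.16, SE 0.051, adjusted p = 0.0131, edgeR) but was not called in 5 limma settings. PSME3, the gamma subunit of the nuclear PA28 activator, was at 168, 162 and 161 CPM in WT and 149, 152 and 142 CPM in KO. It fell without overlap (-0.15, SE 0.050, adjusted p = 0.0191, edgeR). The inhibitor gene PSMF1 was at -0.04 (adjusted p = 0.618, edgeR).

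The PSMG genes encode chaperones that assemble the core. PSMG4 was at 13.8, 13.1 and 13.8 CPM in WT and 16.6, 17.7 and 18.9 CPM in KO. It rose to 131% of WT without overlap (log2 fold change 0.38, SE 0.086, adjusted p = 0.000751, edgeR), the highest fold change of the 45 genes and in the member of lowest CPM. PSMG1, PSMG2 and PSMG3 lay at -0.06, 0.03 and -0.04 and were not called. POMP, another core chaperone, had 70.7 ± 2.10 CPM in WT against 64.3 ± 3.99 in KO (log2 fold change -0.14, SE 0.059, adjusted p = 0.0742, edgeR). POMP passed with library totals (adjusted p = 0.0394) and without KO replicate 1 (adjusted p = 0.0239).

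The 33 genes that were not called had narrow intervals. Their lowest lower bound was -0.28 (PSMD10), 0.826 of WT, and their highest upper bound 0.23 (PSMC5), 1.18 times WT. For 32 of the 33 the whole 95% interval lay inside a 1.2-fold change. When counts of 12596 genes were simulated for this comparison, edgeR recovered 46% of genes changed 1.2-fold and 84% of those changed 1.5-fold. The changed genes were drawn at random from all tested genes, so these shares are not specific to proteasome genes. In WT replicate 1 the median was 20.8 TPM for all tested genes and 136 TPM for proteasome genes.

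Position on the chromosome went with direction for many of the called genes. Of the 6 genes that rose, 5 lie on chromosome 1 (PSMB2, PSMB4 and PSMD4) or 6 (PSMB8 and PSMG4). Of all tested genes, 35.7% were higher and 10.2% lower on chromosome 1, and 53.5% higher and 8.99% lower on chromosome 6, against 14.6% higher elsewhere. Among the 38 proteasome genes off chromosomes 1 and 6, 1 rose and 6 fell, with a median of -0.03, where 14.6% of all tested genes were higher and 19.6% lower. The 12 tested genes on each side of PSMB8 had a median log2 fold change of 0.58, above its own 0.28. Those around PSMG4 had 0.25, and those around PSMB2, PSMD4 and PSMB4 had 0.16, 0.11 and 0.07. Around PSME4 the median was 0.00. Of the genes that fell, PSMA4, PSMA2 and PSMD12 had neighbours at -0.13, -0.04 and -0.01. Those of PSMB10, PSMD8 and PSME3 were at 0.03, 0.04 and 0.07. The part of neighbouring genes in these differences was not tested.

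**Figure D4:**
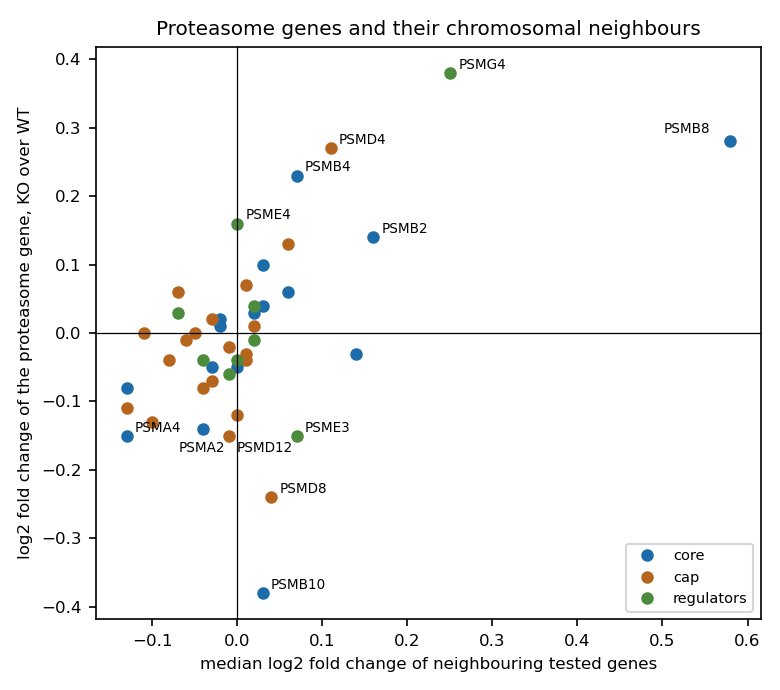
Log2 fold change of each proteasome gene (y axis) against the median of its neighbours, up to 12 tested genes on each side (x axis). PSMB8 stands apart at a neighbour median of 0.58, while PSMB10 and PSMD8 lie below 0 beside neighbours near 0.

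In the deposited transcript table, 110 of the 134 rows of proteasome genes were tested, and 1 was called in edgeR, against 2.13% of all 44030 tested rows. It was NM_002812 of PSMD8, which was lower (log2 fold change -0.25, SE 0.039, adjusted p = 0.0447). This call was lost on leaving out any of the 6 libraries and with no filter on low counts. At an unadjusted p under 0.05 there were 11 of 110, against 12.4% of all tested rows. DESeq2 called 4 higher and 4 lower, but the 2.13% above is edgeR's share and is no background for that count. The table lists some models in several rows with the reads split evenly. With such copies merged, a step chosen after seeing the data, 113 models remained and 91 were tested. The most abundant model was then the same in WT and KO for 45 of 45 genes. The share of a model in its gene shifted by at most 6.15 percentage points, for XM_024452135 of PSMG1 (49.1% to 42.9%). For PSMB8 the shares were 80.2% and 82.3% for NM_148919, and 19.8% and 17.7% for NM_004159.

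NFE2L1, the inducer of subunit genes, rose. It was at 470, 441 and 497 CPM in WT and 635, 641 and 674 CPM in KO, without overlap (log2 fold change 0.47, SE 0.051, adjusted p = 1.59e-08, edgeR). Its neighbours had a median of -0.14. A list of 13 genes was made up of NFE2L1, NFE2L2 and genes that control, process or partner them. Of these, 4 rose, NFE2L1 included, and 1 fell, with a median of 0.05. The called share of 38.5% was near the 36.8% of all tested genes. OGT, a glycosyltransferase that acts on NFE2L1, rose (0.31), as did the small MAF partners MAFG (0.24) and MAFF (0.37), while the small MAF gene MAFK fell (-0.31). NFE2L2, its oxidative-stress relative, was at 390 ± 16.0 and 381 ± 7.72 CPM (-0.03, adjusted p = 0.618, edgeR).

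The letters TGACNNNGC, the antioxidant response element that NFE2L1 and NFE2L2 bind, were searched on both strands of the same promoter windows. They were in a window of 14 of 39 proteasome genes (35.9%), against 16.1% of all genes and 19.2% of tested genes. Where 36.8% of all tested genes were called, PSME4 rose, PSMA4 and PSMD12 fell and 11 of the 14 were not called. The 60-base stretches of these 3 called genes are shown because they hold the motif, in capitals (for PSME4 as its reverse complement), while their genes differ in direction.
PSME4 (chr2:53970993-53971052, minus strand): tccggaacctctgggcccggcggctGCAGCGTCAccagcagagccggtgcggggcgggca
PSMA4 (chr15:78540635-78540694, plus strand): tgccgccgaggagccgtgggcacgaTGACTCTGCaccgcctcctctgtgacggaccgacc
PSMD12 (chr17:67366708-67366767, minus strand): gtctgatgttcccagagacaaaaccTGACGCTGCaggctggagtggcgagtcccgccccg

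Genes that work with the proteasome were counted in the same way, beside the 18.7% of all tested genes that were higher and the 18.1% that were lower. Of 21 proteasome-associated genes, 6 rose and 1 fell (33.3% called, near the 36.8% of all tested genes), with a median of 0.00. BAG6, a chaperone for mislocalised proteins, rose (0.76, from 244 ± 4.74 to 415 ± 17.6 CPM) beside chromosome 6 neighbours at 0.69. MIDN, which carries proteins to the proteasome without ubiquitin, rose (0.35). ADRM1, a ubiquitin receptor of the cap, was at 0.05 (adjusted p = 0.483, edgeR), and the small cap subunit gene SEM1 at 0.00 (adjusted p = 0.981, edgeR). Of 21 ubiquitin, E1 and E2 genes, 3 rose and 8 fell (median -0.07). UBE2K, an E2 enzyme, rose (0.68) beside chromosome 4 neighbours at 0.62, while the E2 genes UBE2N (-0.27) and UBE2L3 (-0.26) fell. Of 14 genes of the segregase VCP and its cofactors, 4 rose and none fell (28.6% called, median 0.05). Among them were UBXN1 (0.36, neighbours at 0.06) and, on chromosome 1, FAF1 (0.29) and UBE4B (0.17). The neighbours of FAF1 and UBE4B were at 0.12 and 0.13.

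**Figure D5:**
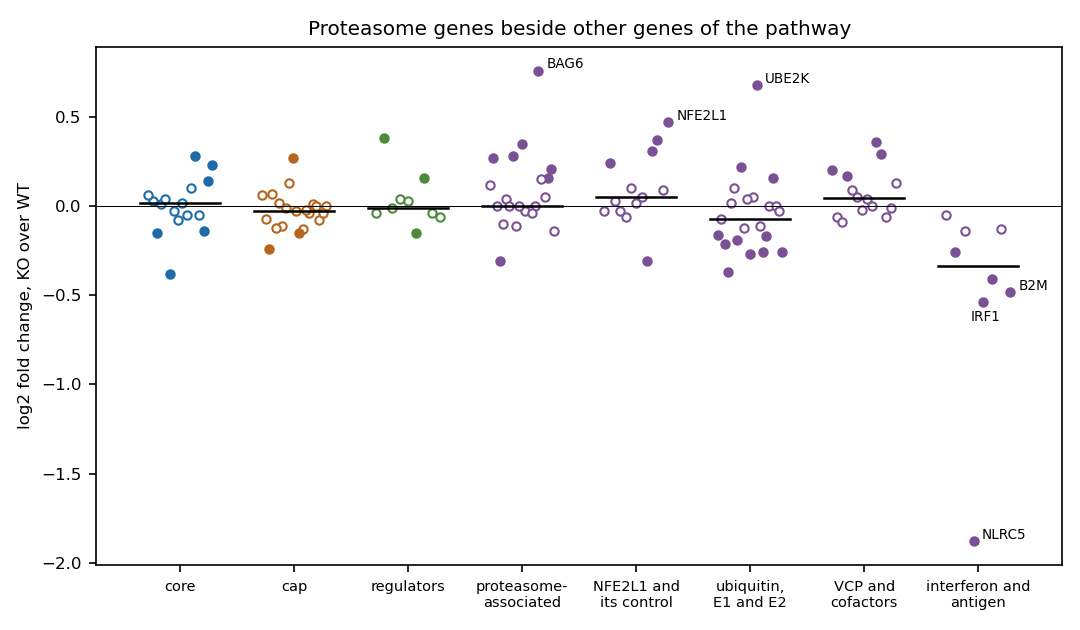
Log2 fold change, KO over WT, of the genes in each pathway list and of the proteasome genes, 1 point per gene, filled where called, with bars for medians. The interferon and antigen presentation genes all lie below 0, down to -1.88 for NLRC5, while the other lists lie on both sides of 0.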

How the data were processed

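The authors deposited, per the file headers, estimated counts of reads, TPM and FPKM for every gene and RefSeq transcript in 3 WT and 3 KO libraries; their group means were not used. The submitters' processing notes list HISAT2 2.0.1, Cuffdiff 2.2.1, cutadapt 1.9.1, FastQC 0.10.1 and bcl2fastq 2.17.1.14, with build GRCh37. As the library kit, the read counter and its strand setting were not given in the sources used here, overlapping or antisense genes and pseudogenes may share reads.

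Estimated counts (13% to 14% not whole) were rounded. Of 16116 genes, 12702 passed filterByExpr (minimum count 10, minimum total 15) and were tested with edgeR 4.0.16 (TMM, robust quasi-likelihood), with Benjamini-Hochberg adjustment over all of them and calls made at 0.05. Levels are CPM after TMM scaling; SE is the size of the log2 fold change divided by the root of F. DESeq2 1.42.0, other scalings and filters, limma 3.58.1 on log2 of TPM or FPKM plus 1 or 0.1, and leaving out each library served as alternatives. Fold changes on those limma scales understate low genes. The edgeR step was tested on simulated data. No replicate pair was identical or within sampling noise (chi-square per degree of freedom 2.03 to 6.08).

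The members and gene lists were chosen with earlier results of these data known. The text names the catalytic and interferon-induced genes, every called member, RETREG1, up to 3 called genes of each pathway list by adjusted p, and NFE2L1, NFE2L2, POMP, ADRM1 and SEM1; other genes were named after their values were seen. One PSMB gene and a gene that the naming rule covers are not reported here. RefSeq GRCh38.p14 gave gene order, pseudogene names and promoters; the files used GRCh37.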

Additional observations from a re-analysis of the deposited data

How the results depend on the processing

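The number of proteasome genes called higher was 4 to 7 and lower 2 to 6 when 1 library was left out. With the replicate number as a block, 8 were higher and 8 lower. The labels do not pair the libraries, so the main test used no block. Deviations of same-numbered WT and KO libraries correlated at 0.267, 0.028 and 0.195. Those of differently numbered ones ran from -0.243 to 0.069. Whether the numbers mark a shared batch was not tested. The 5 limma settings on TPM or FPKM gave 4 higher and 4 lower. Over all tested genes, leaving out 1 library gave 1964 to 2445 higher and 1837 to 2327 lower, and the block 3013 and 2934. By class, leaving out 1 library gave 2 to 3 higher and 1 to 3 lower core genes, 1 to 2 higher and 1 to 2 lower cap genes, and 1 to 2 higher and 0 to 1 lower regulators. Higher cap genes numbered 2 with no filter and with the replicate block. Lower cap genes numbered 4 with library totals and with the replicate block, and 1 in the 5 limma settings, which also gave 1 higher regulator. DESeq2 called 4 transcripts higher and 4 lower; lower transcripts numbered 0 with no filter, with the replicate block and without any 1 library (0 to 0). The cap median was -0.047 with library totals and -0.054, -0.055, -0.041, -0.043 and -0.054 in limma (TPM + 1, TPM + 0.1, FPKM + 1, FPKM + 0.1, TPM filtered at 1), and -0.042 to -0.003 without 1 library. The core median ran from -0.023 to 0.037 and the regulator median from -0.030 to 0.007 without 1 library. The median of all tested genes, -0.001, was -0.002 in DESeq2 and with RLE scaling, -0.007 with upper quartiles, -0.026 with library totals and -0.003 at 5 CPM. In the limma settings it was -0.020, -0.035, -0.010, -0.023 and -0.027, and without 1 library -0.003 to 0.001. Signs turned only in genes that were not called. Without 1 library, PSMB5 ran from -0.10 to 0.02, PSMB6 from -0.05 to 0.09, PSME1 from -0.03 to 0.12, PSME2 from -0.05 to 0.02 and SEM1 from -0.06 to 0.10. PSMB6 was 0.00 with library totals; SEM1 was 0.00 with no filter or the block, 0.05 in the TPM settings and 0.06 in the FPKM ones. POMP was called with the replicate block (adjusted p = 0.0115, edgeR). UBE4B was not called in the 5 limma settings, without WT replicate 2 or without KO replicate 2. The cause of these changes was not tested. With 3 libraries a group, changes near 1.2-fold were often missed in simulated counts, for genes drawn from all tested genes rather than proteasome genes.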
